A study of Mus musculus with 24 samples.

Results

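AGO2 knockout (KO) and wild-type (WT) E14 mouse embryonic stem cells were compared on day 4 of a differentiation towards extraembryonic endoderm (XEN), across all genes. The comparison rests on 4 of the 24 samples of the series, 2 KO and 2 WT libraries, chosen by the genotype and day in their labels. The study followed both genotypes from embryonic stem cells through the days of this protocol, and the other libraries of days 1 to 4 entered here only to estimate the spread between libraries. The KO group consisted of cells labelled as AGO2 knock out, and the WT group of E14 cells labelled as wild type. Both were of 129/Ola background and had been grown with serum and LIF (leukaemia inhibitory factor, a cytokine that keeps stem cells undifferentiated). For differentiation, cells of both genotypes were kept on gelatin in RPMI 1640 medium with 15% FBS, 10 ng/mL Activin A and 0.1 µM all-trans retinoic acid, and the protocol lasted 5 days in all. Which KO clone the day 4 libraries came from was not given in the sources used here. Nor do they say whether the libraries of a group came from separate cultures, so the p-values capture no more than the spread among these samples, possibly a technical one.

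AGO2 is one of the mammalian Argonaute proteins, which hold microRNAs and bring them to messenger RNAs with a matching seed, lowering the translation and stability of those messengers. Among the Argonautes of the mouse it is the one with well-known slicing activity. Extraembryonic endoderm is the early lineage that lines the yolk sac. It divides into visceral endoderm, an absorptive and secretory epithelium, and parietal endoderm, which lays down a thick basement membrane. Its identity depends on GATA factors and SOX factors, while retinoic acid and activin are used to push stem cells towards it.

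Polyadenylated RNA was sequenced, and the deposited counts summed to 15003293 and 16990811 in the KO libraries and to 12077796 and 14157310 in the WT libraries. Levels are given as CPM, the count of a gene relative to the scaled size of its library. Fold changes are log2 values of KO over WT with their standard error, and each adjusted p is the Benjamini-Hochberg value of edgeR's quasi-likelihood test over all genes tested. A gene was called when that value was below 0.05. Both KO libraries lay above or below both WT libraries for 9491 of the 17694 genes tested. This held for every called gene, so a lack of overlap adds little to a call. The 2 libraries of a group differed by more than counting noise in both genotypes (chi-square per degree of freedom of 22.1 in KO and 16.2 in WT). With bulk RNA, fewer cells of a type and less RNA per cell cannot be told apart.

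Ago2 itself had 109 and 148 CPM in the KO libraries, against 514 and 581 CPM in the WT libraries. The log2 fold change was -2.09 ± 0.30, adjusted p = 6.08e-04. Some Ago2 RNA was thus still read in the libraries labelled KO. A count summed over the gene leaves unknown which exons it came from. Ago2 lies at chr15:73095844-73184935, minus strand (GRCm38). The other 3 Argonautes did not pass the test. Ago1 had 113 and 168 CPM in KO, against 102 and 126 CPM in WT (0.30 ± 0.20, adjusted p = 0.433), while Ago3 (0.16 ± 0.28, adjusted p = 0.807) and Ago4 (0.14 ± 0.34, adjusted p = 0.869) were nearer 0. The value of Ago3 was -0.20 without KO library 2 and -0.10 without WT library 1. Dicer1, which cuts microRNA precursors, had a log2 fold change of 0.18 ± 0.16, adjusted p = 0.571. Of 25 genes of the small RNA machinery tested, 1 was called higher and 0 lower, where 1.99% and 5.05% of all tested genes were called in these directions and 7.04% in either. That gene was Tnrc6a, a GW182 scaffold protein that links Argonautes to deadenylation, with 391 and 409 CPM in KO, against 248 and 259 CPM in WT (0.66 ± 0.19, adjusted p = 0.0492). Its call was lost when any of the 4 libraries was left out. Of the 8 tested genes beside Ago2 on chromosome 15, only Slc45a4 was called (-0.57 ± 0.16, adjusted p = 0.0495), and that call too was lost whichever library was left out.

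Of 17694 genes tested, 1246 were called, which is 7.04%. Of these, 352 genes were higher in KO (1.99% of those tested) and 894 were lower (5.05%). The changes downward were also larger. The median log2 fold change was 0.84 over the genes called higher and -1.61 over the genes called lower, against -0.0049 over all genes tested. A difference of at least 2-fold was reached by 651 of the lower genes and 125 of the higher ones. Fewer genes were called when any of the 4 libraries was left out. Such a fit keeps 1 library in a group, and how much of the loss came from having fewer libraries was not tested. In all, 356 of the 1246 genes kept their call whichever library was left out.

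**Figure D1:**
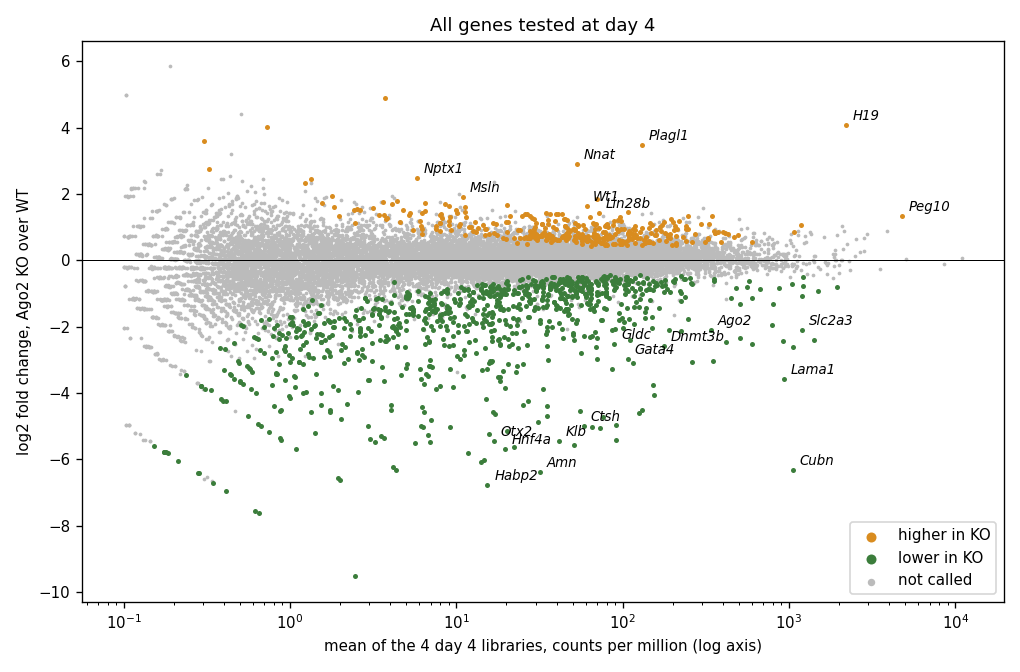
Each point is a gene, with its mean level over the 4 day 4 libraries in CPM on a log axis across and its log2 fold change of KO over WT upward, for the 17439 tested genes that average 0.1 CPM or more. Coloured points are the 352 genes called higher and the 894 called lower, and the lower ones reach much farther from 0.

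With the mean level required to reach 5 CPM, the largest fall among called genes was that of Habp2, a secreted serine protease. It had 0.3003 and 0.247 CPM in the KO libraries, against 32.8 and 28.2 CPM in the WT libraries (-6.77 ± 0.49, adjusted p = 1.17e-06). Next came the endocytic genes Amn and Cubn, the transcription factor genes Tfec (-6.09 ± 0.48), Tcf23 (-6.02 ± 0.48) and Hnf4a, and the ErbB ligand gene Nrg2 (-5.79 ± 0.40). The galectin gene Lgals2 (-5.50 ± 0.88) and the pepsinogen gene Pga5 (-5.43 ± 0.49) were also among the 15 largest falls. All 15 kept their call with each library left out in turn. The largest rises were those of the imprinted genes H19, Plagl1 and Nnat. Nptx1, a neuronal pentraxin, had 8.78 and 10.9 CPM in the KO libraries, against 1.53 and 2.00 CPM in the WT libraries (2.47 ± 0.42, adjusted p = 0.00206). Sema3e, a secreted guidance molecule, had 124 and 94.4 CPM in KO, against 33.1 and 28.0 CPM in WT (1.83 ± 0.23, adjusted p = 1.63e-04), and Aim2, a sensor of cytosolic DNA, had 29.2 and 32.4 CPM in KO, against 9.52 and 9.88 CPM in WT (1.67 ± 0.23, adjusted p = 3.74e-04). For these 3 genes the call held whichever library was left out. Irak3, an inhibitor of Toll-like receptor signalling (1.47 ± 0.24, adjusted p = 0.00171), and C77370 (1.61 ± 0.26, adjusted p = 0.00129) did the same. Sp8, a zinc finger factor (1.63 ± 0.35, adjusted p = 0.011), lost its call without KO library 1 or WT library 2. Xist is counted with an uncertain share of reads from its antisense partner Tsix, since the strand setting of the counting was not given in the sources used here. It had 11.4 and 8.47 CPM in KO, against 2.96 and 3.08 CPM in WT (1.71 ± 0.47, adjusted p = 0.0391), and the call was lost whichever library was left out.

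Many of the transcription factors and signalling genes that define extraembryonic endoderm were lower in KO cells. Of 18 listed regulators 17 were tested, and 9 were called lower and 0 higher, with a median log2 fold change of -1.89. Hnf4a, the nuclear receptor that drives the absorptive and lipoprotein programme of visceral endoderm, had 0.526 and 0.928 CPM in the KO libraries, against 47.4 and 29.5 CPM in the WT libraries (-5.68 ± 0.39, adjusted p = 8.53e-07). Both KO libraries held a small remnant of the level in either WT library. Gata4, a zinc finger factor of primitive endoderm, had 25.5 and 23.0 CPM in the KO libraries, against 209.8 and 173 CPM in the WT libraries (-2.98 ± 0.23, adjusted p = 2.06e-06). Sox7, an endodermal SOX factor, had 3.98 and 4.45 CPM in KO, against 57.8 and 67.1 CPM in WT (-3.88 ± 0.29, adjusted p = 1.45e-06), and Dab2, an endocytic adaptor that GATA factors switch on, had 172 and 184 CPM in KO, against 1040.5 and 1009 CPM in WT (-2.53 ± 0.23, adjusted p = 9.19e-06). The forkhead genes Foxq1 (-2.96 ± 0.31, adjusted p = 3.71e-05), Foxa3 (-3.62 ± 0.67, adjusted p = 0.00422) and Foxa2 (-1.89 ± 0.37, adjusted p = 0.00579) also fell.

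Not every endoderm factor passed. Gata6, the GATA factor that acts first in primitive endoderm, had 59.5 and 40.3 CPM in the KO libraries, against 104 and 84.4 CPM in the WT libraries (-0.92 ± 0.39, adjusted p = 0.2). Pdgfra, the receptor used to mark early primitive endoderm, had 32.8 and 40.0 CPM in KO, against 74.2 and 91.4 CPM in WT (-1.18 ± 0.34, adjusted p = 0.0557). Both KO libraries were below both WT libraries for each gene, but the differences missed the threshold. Sox17, a SOX factor of definitive and extraembryonic endoderm, was called, with 4.13 and 8.97 CPM in KO, against 24.4 and 25.4 CPM in WT (-1.92 ± 0.38, adjusted p = 0.00585). Without KO library 1 its value was -1.45, adjusted p = 0.0998. Foxa3 likewise lost its call without KO library 1 (adjusted p = 0.063), and Foxa2 without KO library 1, KO library 2 or WT library 1 (adjusted p = 0.0513, 0.0566 and 0.0904). The retinoic acid-responsive receptor genes Nr2f1 (0.86 ± 0.38, adjusted p = 0.208) and Nr2f2 (0.89 ± 0.49, adjusted p = 0.341) leaned the other way and were not called.

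Genes of the endocytic apparatus of visceral endoderm fell together. Of 20 listed genes 19 were tested, of which 11 were lower and 0 higher (median -2.08). Cubilin and amnionless together form the receptor through which this epithelium takes up proteins from its surroundings. Cubn, which encodes the binding subunit, had 15.0 and 36.1 CPM in the KO libraries, against 2011 and 2138 CPM in the WT libraries (-6.34 ± 0.39, adjusted p = 6.34e-07). Amn, which encodes the membrane anchor, had 0.526 and 0.928 CPM in the KO libraries, against 66.9 and 58.3 CPM in the WT libraries (-6.39 ± 0.39, adjusted p = 2.52e-07). KO library 2 held more Cubn RNA than KO library 1, but both were far below either WT library, and the log2 fold change stayed between -7.09 and -5.82 when single libraries were left out. Lrp2, megalin, the partner receptor of cubilin, had 269 and 329 CPM in the KO libraries, against 1913 and 1739 CPM in the WT libraries (-2.61 ± 0.27, adjusted p = 3.59e-05). Its chaperone gene Lrpap1 had 77.4 and 74.5 CPM in KO, against 682 and 558 CPM in WT (-3.03 ± 0.19, adjusted p = 2.52e-07). Pdzk1, a scaffold of the apical membrane, had 0.676 and 1.05 CPM in KO, against 52.8 and 33.9 CPM in WT (-5.62 ± 0.55, adjusted p = 2.73e-05). The zinc importers Slc39a8 (-2.59 ± 0.25) and Slc39a4 (-2.08 ± 0.29), the ascorbate carrier Slc23a1 (-5.28 ± 0.65) and the folate receptor Folr1 (-1.56 ± 0.21) were called as well. The microvillar protein gene Vil1 just missed (-1.15 ± 0.33, adjusted p = 0.0524), whereas the general endocytic genes Ap2a1 (-0.25 ± 0.13) and Rab11a (-0.43 ± 0.15) were not called.

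**Figure D2:**
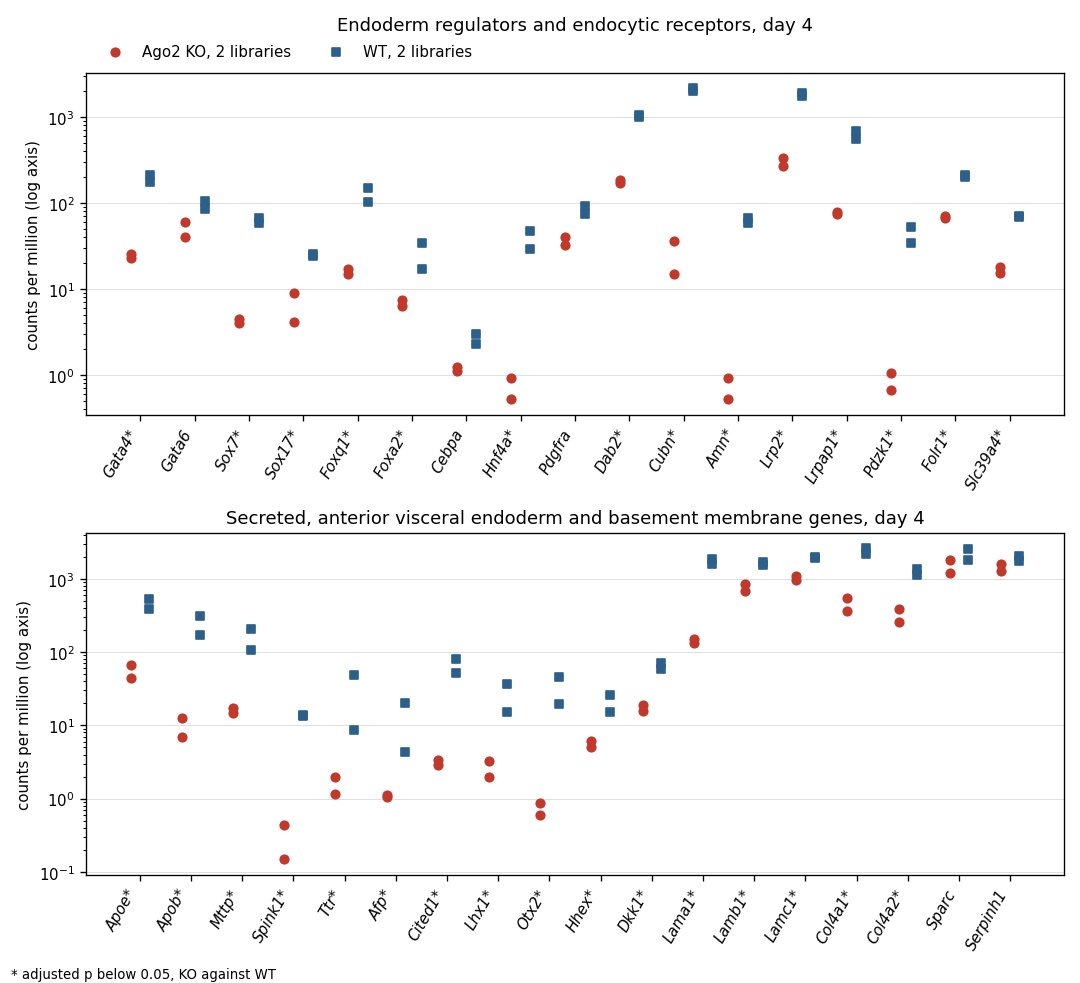
Levels in each library for genes of the endoderm lists and of the basement membrane list, in CPM on a log axis, with the 2 KO libraries left of the 2 WT libraries for each gene. A star marks an adjusted p below 0.05. Both KO points of Hnf4a lie at 0.928 CPM or less and both WT points at 29.5 CPM or more.

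The start regions of the 4 genes with the largest falls among the called members of the regulator, endocytosis and secreted lists are shown because these genes fell together. They run from 250 bases before to 50 after the annotated start in RefSeq, build GRCm38.p6, 5′ to 3′ on the strand of the gene. The gene bodies lie at chr2:13276338-13491813, minus strand for Cubn, chr12:111271095-111276426, plus strand for Amn, chr2:163506808-163572910, plus strand for Hnf4a and chr3:96829284-96870926, plus strand for Pdzk1. The windows are chr12:111270846-111271145 for Amn, chr2:13491827-13492126 for Cubn, chr2:163506607-163506906 for Hnf4a and chr3:96829815-96830114 for Pdzk1. Hnf4a and Pdzk1 have 2 annotated starts each, and the one that held a motif match is printed. The window at the other start of each gene held no match, so the printed windows favour matches. Capitals mark matches to a GATA motif or an HNF4 motif.
Amn: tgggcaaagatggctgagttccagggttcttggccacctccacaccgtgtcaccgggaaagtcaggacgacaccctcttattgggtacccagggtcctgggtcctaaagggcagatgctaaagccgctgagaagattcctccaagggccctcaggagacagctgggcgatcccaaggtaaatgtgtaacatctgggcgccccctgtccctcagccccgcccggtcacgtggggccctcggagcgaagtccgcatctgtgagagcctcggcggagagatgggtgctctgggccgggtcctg
Cubn: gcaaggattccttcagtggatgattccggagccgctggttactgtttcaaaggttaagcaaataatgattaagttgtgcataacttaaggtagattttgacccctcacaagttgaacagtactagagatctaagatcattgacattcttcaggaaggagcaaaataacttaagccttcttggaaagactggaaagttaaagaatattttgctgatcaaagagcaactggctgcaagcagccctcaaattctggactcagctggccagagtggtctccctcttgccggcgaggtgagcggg
Hnf4a: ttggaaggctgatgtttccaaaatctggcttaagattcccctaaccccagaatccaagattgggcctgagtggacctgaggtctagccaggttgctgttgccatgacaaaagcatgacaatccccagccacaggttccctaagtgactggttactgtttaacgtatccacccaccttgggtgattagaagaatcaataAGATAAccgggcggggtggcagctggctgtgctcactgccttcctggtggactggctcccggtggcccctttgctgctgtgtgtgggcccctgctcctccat
Pdzk1: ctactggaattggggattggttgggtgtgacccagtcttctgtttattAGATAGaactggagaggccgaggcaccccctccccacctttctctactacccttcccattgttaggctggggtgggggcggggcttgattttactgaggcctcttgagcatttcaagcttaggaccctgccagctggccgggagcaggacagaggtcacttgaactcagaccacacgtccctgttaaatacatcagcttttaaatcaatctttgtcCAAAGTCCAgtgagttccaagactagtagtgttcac
Motifs were searched on both strands. The GATA motif was read as AGATAA with the last base free to be G, or as the same letters with a first base of T. The HNF4 motif was read as CAAAGTCCA or as CAAAGGTCA. Over the 3 lists, 22 of the 33 called members had a promoter in the table, with 31 promoters in all. A GATA match was present in 10 of these 31 (32.3%), against 29.8% of all 32851 promoters. An HNF4 match was present in 1 of 31 (3.23%), against 0.95% of all promoters. The share with a GATA match was therefore close to that of promoters at large, and a match in a window of this length is a description of letters only.

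Genes for the secreted products of the yolk sac were lower too. Of 26 listed genes 20 were tested, and 14 were called lower and 0 higher (median -3.18). Apoe, an apolipoprotein of lipid transport, had 44.8 and 65.9 CPM in the KO libraries, against 533 and 393 CPM in the WT libraries (-3.06 ± 0.47, adjusted p = 0.00182). Apob, the structural protein of large lipoproteins, had 6.91 and 12.8 CPM in KO, against 314 and 169.6 CPM in WT (-4.61 ± 0.65, adjusted p = 0.00111), and Mttp, which loads lipid onto it, had 14.9 and 17.0 CPM in KO, against 206 and 106 CPM in WT (-3.29 ± 0.29, adjusted p = 8.92e-06). In each case both KO libraries were far below both WT libraries, and WT library 1 was above WT library 2. Spink1, a protease inhibitor (-5.47 ± 0.66, adjusted p = 1.14e-04), Apoa4, another apolipoprotein (-5.47 ± 0.85, adjusted p = 0.00173), and Pla2g12b, needed for lipoprotein secretion (-4.37 ± 0.49, adjusted p = 6.25e-05), fell as well. The fetal plasma protein genes Ttr and Afp showed a wide spread within WT. Ttr had 1.95 and 1.18 CPM in KO, against 48.2 and 8.59 CPM in WT (-4.19 ± 0.75, adjusted p = 0.00574). Afp had 1.13 and 1.05 CPM in KO, against 20.4 and 4.37 CPM in WT (-3.49 ± 0.79, adjusted p = 0.0165). Ttr lost its call without KO library 1 (adjusted p = 0.0598) or KO library 2 (adjusted p = 0.0677), and Afp without KO library 1, KO library 2 or WT library 1 (adjusted p = 0.152, 0.111 and 0.165). The count of 14 became 7 without KO library 1, 9 without KO library 2 and 8 without WT library 1, while it stayed 14 without WT library 2.

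The anterior visceral endoderm is the signalling centre of the early embryo that secretes inhibitors of WNT and Nodal. Of 14 tested genes of this list, 11 were called lower and 0 higher (median -2.12), although several of them are also used elsewhere in the embryo. Otx2, a homeodomain factor shared with the epiblast, had 0.601 and 0.866 CPM in the KO libraries, against 45.9 and 19.8 CPM in the WT libraries (-5.45 ± 0.80, adjusted p = 0.00117). Cited1, a transcriptional co-regulator, had 2.85 and 3.40 CPM in KO, against 81.1 and 52.0 CPM in WT (-4.40 ± 0.35, adjusted p = 2.28e-06). Dkk1, a secreted WNT inhibitor, had 15.8 and 19.1 CPM in KO, against 59.2 and 71.6 CPM in WT (-1.90 ± 0.21, adjusted p = 4.95e-05). These 3 genes kept their call whichever library was left out, as did Ihh, the Hedgehog ligand of the yolk sac (-4.42 ± 0.50, adjusted p = 6.09e-05), Lhx1 (-3.31 ± 0.52, adjusted p = 0.00113), Hhex (-1.89 ± 0.29, adjusted p = 8.01e-04) and the WNT receptor gene Fzd5 (-2.55 ± 0.39, adjusted p = 0.00115). Amot, an adaptor of the Hippo pathway (-2.33 ± 0.40, adjusted p = 0.00376), lost its call without KO library 1 (adjusted p = 0.0689). Eomes (-1.31 ± 0.40, adjusted p = 0.0685) and Sfrp5 (-1.46 ± 0.44, adjusted p = 0.0719) were not called. Without KO library 1 the list held 7 called genes.

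Basement membrane genes, the product of parietal endoderm, divided by chain. Of 23 genes tested, 10 were lower and 0 higher, with a median of -0.53. The chains of laminin-111, the laminin of embryonic basement membranes, were all called. Lama1 had 153 and 135 CPM in the KO libraries, against 1579.9 and 1885 CPM in the WT libraries (-3.59 ± 0.32, adjusted p = 1.06e-05), Lamb1 had 838 and 690.2 CPM in KO, against 1695 and 1538 CPM in WT (-1.08 ± 0.15, adjusted p = 4.31e-04), and Lamc1 was lower by the least (-0.93 ± 0.21, adjusted p = 0.0139). The Lamc1 call was lost when any of the 4 libraries was left out. The collagen IV pair followed, with 547 and 360.2 CPM in the KO libraries, against 2599 and 2175 CPM in the WT libraries for Col4a1 (-2.40 ± 0.28, adjusted p = 1.16e-04) and a log2 fold change of -1.96 ± 0.24, adjusted p = 1.31e-04 for Col4a2. Pth1r, the receptor whose signalling promotes parietal endoderm (-2.99 ± 0.26, adjusted p = 6.88e-06), the prolyl hydroxylase gene P4ha2 (-1.42 ± 0.15, adjusted p = 4.19e-05) and the cathepsin genes Ctsl (-2.42 ± 0.20, adjusted p = 3.73e-06) and Ctsc (-2.39 ± 0.26, adjusted p = 4.06e-05) also fell. Other matrix genes of the same list were not called. Sparc, which encodes a collagen-binding protein abundant in parietal endoderm, had 1819 and 1186 CPM in KO, against 2519.9 and 1826 CPM in WT (-0.53 ± 0.20, adjusted p = 0.143), and the collagen chaperone gene Serpinh1 had a log2 fold change of -0.41 ± 0.16, adjusted p = 0.166. Lama5, a laminin chain of later basement membranes, was not called either (0.20 ± 0.22, adjusted p = 0.664).

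Mesenchymal and contractile genes, read as markers of other cell types, had RNA in both genotypes, and the test gave no calls among them, although other settings did. Of 27 tested genes for mesenchymal collagens and matrix 0 were called, of 21 fibroblast regulators 0, and of 18 smooth muscle genes 0. Their medians were 0.32, 0.56 and 0.60. At an unadjusted p below 0.05 4 of the matrix genes, 5 of the regulators and 3 of the smooth muscle genes would pass. DESeq2's Wald test called 1, 3 and 2 of them. Without an expression filter the calls were 8 higher and 2 lower for the matrix, 3 higher and 0 lower for the regulators and 10 higher and 0 lower for smooth muscle. The 4 day 4 libraries alone gave 1 higher and 1 lower, 2 higher and 0 lower, and 0 in either direction for these lists in the same order. Acta2, smooth muscle actin, had 3928 and 1644 CPM in the KO libraries, against 2386 and 651 CPM in the WT libraries (0.88 ± 0.69, adjusted p = 0.536). Tagln had 3626 and 1939 CPM in KO, against 1881 and 857 CPM in WT (1.02 ± 0.48, adjusted p = 0.257). For both genes library 1 was higher than library 2 within each genotype, and for Acta2 the groups overlapped. Summed over the smooth muscle list, levels were 21893 and 13122 CPM in the KO libraries, against 13375 and 7314 CPM in the WT libraries. Tpm1 (0.80 ± 0.26, adjusted p = 0.0881) and Cald1 (0.84 ± 0.28, adjusted p = 0.0957) had both KO libraries above both WT libraries without passing, and so did the mesenchymal factors Zeb1 (0.70 ± 0.20, adjusted p = 0.0506) and Zeb2 (1.05 ± 0.37, adjusted p = 0.109).

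Of 13 tested mesothelium genes, 3 were called higher and 1 lower. Msln, mesothelin, had 19.4 and 15.0 CPM in the KO libraries, against 4.58 and 4.51 CPM in the WT libraries (1.92 ± 0.25, adjusted p = 2.46e-04). Wt1, a factor of mesothelium and kidney precursors, had 98.7 and 85.3 CPM in the KO libraries, against 27.7 and 30.8 CPM in the WT libraries (1.65 ± 0.27, adjusted p = 0.00138). Both genes kept their call whichever library was left out. Bnc2 (1.43 ± 0.28, adjusted p = 0.00623) lost its call without WT library 2 (adjusted p = 0.0811). Lrrn4 went the other way (-1.20 ± 0.24, adjusted p = 0.00728) and lost its call without KO library 1 or WT library 1, while Upk3b (1.00 ± 0.46, adjusted p = 0.23) was not called. Of 25 cardiac and mesodermal genes 1 was higher, Msx1 (1.38 ± 0.35, adjusted p = 0.0292), and 1 lower, Ryr2 (-1.56 ± 0.32, adjusted p = 0.00834). That share of 8% called was near the 7.04% of all genes tested. The Msx1 call was lost whichever library was left out, that of Ryr2 without KO library 1, KO library 2 or WT library 1. Of 19 neural genes 2 were higher and 0 lower, namely Pax6 and Ncam1 (1.17 ± 0.27, adjusted p = 0.0182). The Ncam1 call did not hold with each library left out in turn. The neural and eye factor Pax6 had 13.3 and 16.3 CPM in KO, against 4.67 and 5.58 CPM in WT (1.52 ± 0.27, adjusted p = 0.00293), a call that held whichever library was left out. Of 12 trophoblast genes 0 were higher and 1 lower (Tead4, -0.91 ± 0.20). Of 11 blood and endothelial genes 0 were higher and 2 lower (Flt1, -1.90 ± 0.34, and Gata1). The shares called were 8.33% and 18.2%, against 7.04% of all genes tested. At an unadjusted p below 0.05 the lists would have 5 and 7 genes. Their medians were 0.20 and -1.48, so the blood and endothelial list leaned down. Without KO library 1 neither list held a call.

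Some genes of the undifferentiated state were lower, and the spread within genotypes was wide. Of 15 core pluripotency genes 5 were called lower and 0 higher (median -0.98). L1td1, an RNA-binding protein of stem cells, had 36.7 and 61.3 CPM in the KO libraries, against 168 and 202 CPM in the WT libraries (-1.92 ± 0.29, adjusted p = 9.71e-04), and it was the 1 gene of the 5 to keep its call without KO library 1. Without WT library 1 or WT library 2 the list held 3 called genes. The central factors were not called. Pou5f1 had 7.81 and 27.7 CPM in the KO libraries, against 47.0 and 102 CPM in the WT libraries (-2.06 ± 0.66, adjusted p = 0.0905). Nanog had 11.6 and 48.0 CPM in KO, against 46.1 and 113 CPM in WT (-1.41 ± 0.75, adjusted p = 0.328), and Esrrb had 7.96 and 26.6 CPM in KO, against 21.8 and 41.7 CPM in WT (-0.87 ± 0.68, adjusted p = 0.531). For these 3 genes library 2 was higher than library 1 in both genotypes. Summed over the core list, levels were 694 and 886 CPM in the KO libraries, against 1245 and 1512 CPM in the WT libraries, with no member at 0 in any library, and the part of undifferentiated cells in the endoderm results was not tested. Sox2 had 19.1 and 34.5 CPM in KO, against 20.6 and 30.4 CPM in WT, with no difference in either direction that exceeded the spread (0.07 ± 0.61, adjusted p = 0.969). Without KO library 2 its log2 fold change was -0.40 and without WT library 1 it was -0.17. Of 17 naive pluripotency genes 4 were lower and 0 higher, with 1 called without KO library 1, namely Tdh, and 2 without WT library 2. Of 17 genes of the formative and primed epiblast 4 were lower and 0 higher. Dnmt3b, the de novo DNA methyltransferase of the epiblast, had 40.2 and 61.4 CPM in the KO libraries, against 315 and 295 CPM in the WT libraries (-2.58 ± 0.20, adjusted p = 2.28e-06). Etv4, a target of FGF signalling, had 4.50 and 6.25 CPM in KO, against 29.2 and 33.2 CPM in WT (-2.53 ± 0.28, adjusted p = 4.89e-05).

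Several receptors and ligands of endoderm signalling fell. Of 23 tested genes of the FGF pathway, 8 were lower and 1 higher (median -0.61). Klb, β-Klotho, the co-receptor for endocrine FGFs, had 1.13 and 2.54 CPM in the KO libraries, against 78.8 and 83.6 CPM in the WT libraries (-5.44 ± 0.32, adjusted p = 2.03e-07). Among the receptors, Fgfr4 had 2.93 and 1.92 CPM in KO, against 20.7 and 15.1 CPM in WT (-2.89 ± 0.31, adjusted p = 4.06e-05) and Fgfr3 had 6.91 and 5.81 CPM in KO, against 27.2 and 27.7 CPM in WT (-2.11 ± 0.25, adjusted p = 1.14e-04), while Fgfr1 was not called (0.45 ± 0.16, adjusted p = 0.116). The ligand gene Fgf3 (-2.66 ± 0.40, adjusted p = 7.59e-04) and the feedback inhibitor gene Spry4 (-2.28 ± 0.41, adjusted p = 0.00321) were lower. Spred1, another inhibitor of the same cascade, was higher (0.70 ± 0.14, adjusted p = 0.00684), but not without WT library 2 (adjusted p = 0.0512). Dusp6, the ERK phosphatase often read as a measure of pathway activity, was not called (0.73 ± 0.27, adjusted p = 0.126).

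Other pathways gave fewer calls. The share called in either direction was 13.5% for WNT and 18.8% for Hedgehog genes, against 7.04% of all genes tested. It was 7.69% for BMP genes and 11.1% for the Nodal and activin pathway. Of 37 WNT genes 2 were higher and 3 lower, the lower ones being Dkk1, Fzd5 and the secreted inhibitor gene Sfrp1 (-1.22 ± 0.25, adjusted p = 0.0079). The Sfrp1 call did not hold with each library left out in turn. Wnt6, a ligand, had 14.4 and 11.7 CPM in the KO libraries, against 3.59 and 4.37 CPM in the WT libraries (1.71 ± 0.30, adjusted p = 0.00276), and the receptor gene Fzd2 was higher as well (1.20 ± 0.27, adjusted p = 0.016) but lost its call without KO library 1, WT library 1 or WT library 2. The WNT target genes Axin2 (0.87 ± 0.29, adjusted p = 0.0885) and Lef1 (1.504 ± 0.46, adjusted p = 0.0691) were not called. Of 16 Hedgehog genes the ligand Ihh was lower, and the receptor-level gene Smo (0.54 ± 0.14, adjusted p = 0.0341) and the factor Gli2 (0.71 ± 0.18, adjusted p = 0.0305) were higher. Smo lost its call whichever library was left out and Gli2 without KO library 1 or WT library 2. Of 26 BMP genes 1 was higher, Msx1, and 1 lower, the ligand gene Bmp6 (-1.84 ± 0.32, adjusted p = 0.00259). Of 18 genes of the Nodal and activin pathway 0 were higher and 2 lower, and those calls, Lefty1 (-1.44 ± 0.38, adjusted p = 0.0386) and Gsc (-2.46 ± 0.70, adjusted p = 0.0486), were both lost without KO library 1 or WT library 1.

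**Figure D3:**
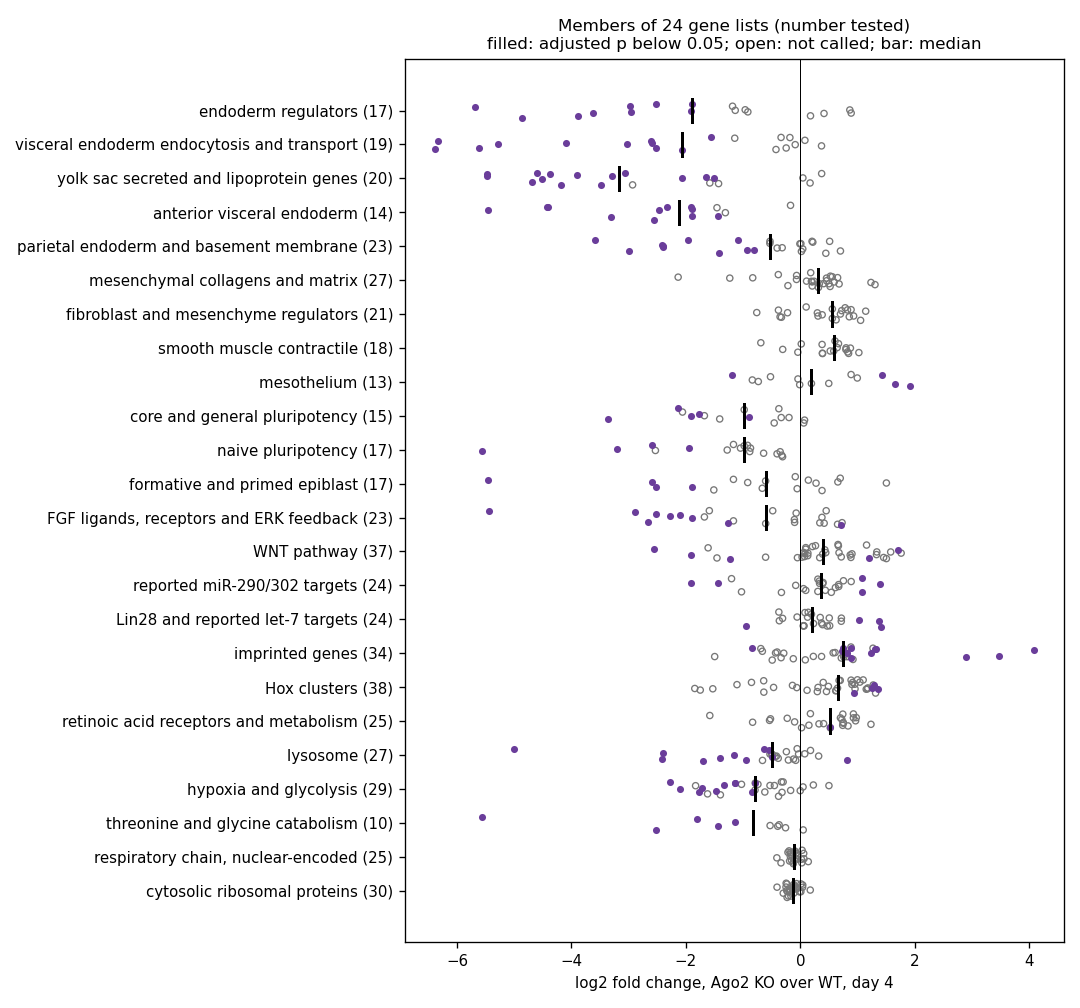
Log2 fold change of KO over WT for every tested member of the gene lists, 1 row per list, with filled points for called genes, open points for genes not called and a bar at the median. The endoderm, endocytosis, secreted and anterior lists have medians of -1.89 or lower, while the ribosomal and respiratory chain lists have medians of -0.12 and -0.11.

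The miR-290 and miR-302 families are abundant in pluripotent cells, whereas let-7 accumulates as cells differentiate. Their mature sequences are shown, from RefSeq on GRCm38.p6, because 2 lists hold genes reported as their targets. Capitals mark the seed, bases 2 to 8.
miR-291a-3p: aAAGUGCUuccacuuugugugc
miR-294-3p: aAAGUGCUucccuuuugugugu
miR-295-3p: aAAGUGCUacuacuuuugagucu
miR-302b-3p: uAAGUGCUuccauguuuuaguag
miR-302d-3p: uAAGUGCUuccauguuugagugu
miR-290a-3p: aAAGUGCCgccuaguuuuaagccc
let-7a-5p: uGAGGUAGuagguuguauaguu
let-7g-5p: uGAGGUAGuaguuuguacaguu
The first 5 share a seed across both families, miR-290a-3p differs from it within the seed, and the let-7 members share another. These libraries do not measure mature microRNAs. Of 24 genes reported as targets of miR-290 or miR-302 family members, 3 were higher and 2 lower in KO, with a median log2 fold change of 0.36. Tgfbr2, a TGF-β receptor, had 64.0 and 42.2 CPM in the KO libraries, against 26.9 and 13.6 CPM in the WT libraries (1.39 ± 0.35, adjusted p = 0.0254). Lats2, a Hippo pathway kinase, had 106 and 76.8 CPM in KO, against 53.0 and 33.5 CPM in WT (1.09 ± 0.30, adjusted p = 0.0425). Irf2, an interferon regulatory factor, had 20.6 and 18.3 CPM in KO, against 10.4 and 8.16 CPM in WT (1.07 ± 0.26, adjusted p = 0.0227). Each of these calls was lost without KO library 1 and without WT library 2. Cfl2 (0.75 ± 0.22, adjusted p = 0.0538), Mbd2 (0.61 ± 0.18, adjusted p = 0.0587) and Rhoc (0.67 ± 0.21, adjusted p = 0.0778) missed the threshold narrowly. The lower ones were Dkk1 and Lefty1, both also on the endoderm lists.

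Of 24 genes of the Lin28 and let-7 axis, 3 were higher and 1 lower (median 0.21). Lin28b, an RNA-binding protein that blocks let-7 maturation and is itself a let-7 target, had 101 and 108 CPM in the KO libraries, against 39.2 and 39.1 CPM in the WT libraries (1.42 ± 0.22, adjusted p = 8.26e-04). The 2 libraries of each genotype differed by little, and the call held whichever library was left out. Ccnd1, a G1 cyclin, had 60.7 and 60.3 CPM in KO, against 32.6 and 27.3 CPM in WT (1.02 ± 0.21, adjusted p = 0.00932) and lost its call without WT library 2 (adjusted p = 0.0914). The kinase gene Cdk6 was higher (1.38 ± 0.36, adjusted p = 0.0353) with a call lost whichever library was left out, and Mycn was lower (-0.95 ± 0.23, adjusted p = 0.0207), but not without KO library 1, KO library 2 or WT library 1. Lin28a was not called (-0.37 ± 0.24, adjusted p = 0.408). Without WT library 2, Lin28b was the 1 gene of this list still called higher.

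Imprinted genes, which are expressed from only the maternal or the paternal copy, gave more calls in the upward direction than any other list examined. Of 34 tested, 11 were higher and 1 lower, with a median log2 fold change of 0.74. H19, a noncoding RNA expressed from the maternal copy, had 5112 and 3259 CPM in the KO libraries, against 328 and 167 CPM in the WT libraries (4.08 ± 0.72, adjusted p = 0.00507). Plagl1, a zinc finger factor, had 267 and 211 CPM in the KO libraries, against 30.7 and 12.6 CPM in the WT libraries (3.47 ± 0.63, adjusted p = 0.00616), and Nnat, neuronatin, had 118 and 70.3 CPM in KO, against 16.9 and 8.59 CPM in WT (2.89 ± 0.71, adjusted p = 0.0311). In each of the 3, KO library 1 was the highest and WT library 2 the lowest. Without WT library 2 the value of H19 was 3.71, adjusted p = 0.083. Plagl1 lost its call without KO library 1 (adjusted p = 0.0545) or WT library 2 (adjusted p = 0.0894), and Nnat whichever library was left out. H19 lies at chr7:142575529-142578143, minus strand and Plagl1 at chr10:13060504-13131694, plus strand.

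The neighbours Peg10 and Sgce, a paternally expressed pair on chromosome 6, were both higher. Peg10, derived from a retrotransposon and needed in placenta, had 7808 and 5935 CPM in the KO libraries, against 2955 and 2523 CPM in the WT libraries (1.33 ± 0.35, adjusted p = 0.0387), and Sgce had 65.7 and 59.0 CPM in KO, against 29.99 and 23.1 CPM in WT (1.23 ± 0.24, adjusted p = 0.00568). Snrpn (0.73 ± 0.15), Zrsr1 (0.75 ± 0.16), Rian (0.89 ± 0.21), Ndn (0.82 ± 0.21), Ddc (1.31 ± 0.34) and Impact (0.88 ± 0.24) made up the remaining higher calls. Grb10, an adaptor that restrains growth factor signalling, was lower (-0.85 ± 0.19, adjusted p = 0.0127), a call that did not hold with each library left out in turn. Peg3 (0.88 ± 0.37, adjusted p = 0.186), Zdbf2 (1.27 ± 0.44, adjusted p = 0.119), Meg3 (0.76 ± 0.23, adjusted p = 0.068) and Mest (0.81 ± 0.33, adjusted p = 0.17) were above 0 and not called. The count of 11 higher became 2 without KO library 1, 8 without KO library 2, 4 without WT library 1 and 1 without WT library 2. Levels of imprinted genes do not show which parental copy was transcribed.

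**Figure D4:**
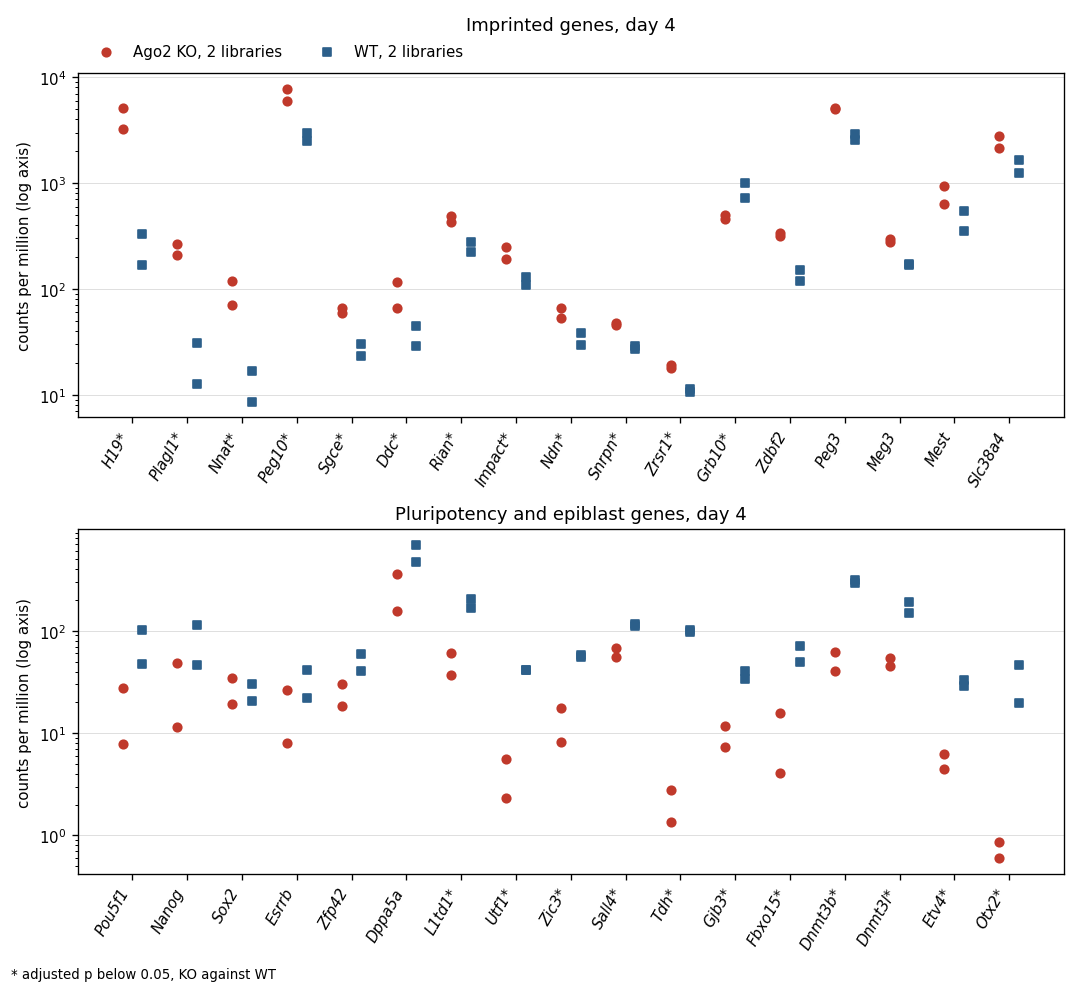
Levels in each library for imprinted genes and for genes of the undifferentiated state and epiblast, in CPM on a log axis, with KO left of WT for each gene. A star marks an adjusted p below 0.05. The KO points of H19 lie at 3259 and 5112 CPM and its WT points at 167 and 328 CPM, while the points of Nanog overlap between the groups.

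Retinoic acid genes and Hox genes, a classic retinoic acid readout, mostly had log2 fold changes above 0. Of 25 tested genes for retinoic acid receptors and metabolism 1 was higher and 0 lower (median 0.52), the receptor gene Rara (0.51 ± 0.14, adjusted p = 0.0346), which lost its call without KO library 1, WT library 1 or WT library 2. Rarb, a receptor gene that retinoic acid induces directly, had 67.1 and 60.2 CPM in KO, against 36.2 and 39.9 CPM in WT (0.74 ± 0.23, adjusted p = 0.0649). Of 38 Hox genes 4 were higher and 0 lower (median 0.66). Hoxa3 had 47.6 and 35.4 CPM in the KO libraries, against 17.0 and 17.97 CPM in the WT libraries (1.25 ± 0.28, adjusted p = 0.0132). Hoxa9 (1.37 ± 0.30, adjusted p = 0.0136), Hoxb2 (0.95 ± 0.24, adjusted p = 0.026) and Hoxa4 (1.29 ± 0.35, adjusted p = 0.0394) were the others. The list held 0 calls without KO library 1, WT library 1 or WT library 2 and 1 without KO library 2.

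Part of the genes of the lysosome, of amino acid breakdown and of glycolysis were lower. Of 27 lysosomal genes 10 were lower and 1 higher (median -0.49). Ctsh, a lysosomal protease, had 2.78 and 4.21 CPM in the KO libraries, against 156 and 71.0 CPM in the WT libraries (-5.01 ± 0.39, adjusted p = 2.37e-06). Ctsz (-1.70 ± 0.19, adjusted p = 5.03e-05), Ctsa (-1.17 ± 0.19, adjusted p = 0.00129) and the proton pump subunit genes Atp6v0a1 (-1.41 ± 0.16, adjusted p = 7.77e-05) and Atp6v1a (-0.96 ± 0.18, adjusted p = 0.0047) also fell, and these 5 kept their call whichever library was left out. The membrane protein gene Lamp1 was not called (-0.50 ± 0.14, adjusted p = 0.0504). Psap, the precursor of the saposins, was higher (0.82 ± 0.19, adjusted p = 0.0167) but not without KO library 1, WT library 1 or WT library 2.

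Of 10 genes for threonine and glycine breakdown 5 were lower and 0 higher. Tdh, threonine dehydrogenase, an enzyme on which mouse stem cells rely for one-carbon units, had 1.35 and 2.78 CPM in the KO libraries, against 102 and 97.7 CPM in the WT libraries (-5.56 ± 0.48, adjusted p = 1.81e-05). Gcat, which acts next in that pathway, had 20.6 and 24.5 CPM in KO, against 61.2 and 61.6 CPM in WT (-1.44 ± 0.17, adjusted p = 9.76e-05). The glycine cleavage genes Gldc (-2.51 ± 0.18, adjusted p = 1.34e-06) and Gcsh (-1.80 ± 0.15, adjusted p = 2.85e-06) fell too, and these 4 kept their call whichever library was left out. Shmt1, a serine hydroxymethyltransferase (-1.14 ± 0.20, adjusted p = 0.00257), lost its call without KO library 1.

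Of 29 genes of hypoxia and glycolysis 10 were lower and 0 higher (median -0.79). The glucose transporter gene Slc2a3 had 342 and 559.9 CPM in the KO libraries, against 1834 and 2056 CPM in the WT libraries (-2.11 ± 0.34, adjusted p = 0.00156), and the phosphofructokinase gene Pfkl had 90.8 and 132 CPM in KO, against 366 and 398 CPM in WT (-1.78 ± 0.27, adjusted p = 9.00e-04). With Bnip3, a mitophagy receptor (-2.28 ± 0.34, adjusted p = 9.71e-04), they were the 3 that kept their call whichever library was left out. The glycolytic enzyme gene Pgk1 (-1.15 ± 0.23) lost its call without KO library 1, and Tpi1 (-1.14 ± 0.26), Ldha (-1.33 ± 0.30), Pkm (-0.80 ± 0.20) and Aldoa (-0.84 ± 0.21) whichever library was left out. The list held 3 to 5 calls with a library left out. Gapdh was not called (-0.30 ± 0.18, adjusted p = 0.392). Of 24 cholesterol genes 6 were lower and 0 higher, of which Ebp, a sterol isomerase (-0.87 ± 0.16, adjusted p = 0.00393), kept its call throughout. That count was 1 without KO library 1 or WT library 2, 2 without WT library 1 and 4 without KO library 2.

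Junction and keratin genes moved both ways, with 7 lower and 3 higher of 25. The tight junction genes Cldn6 (-1.12 ± 0.16, adjusted p = 6.36e-04) and Cldn7 (-2.24 ± 0.34, adjusted p = 8.26e-04) and the epithelial splicing factor gene Esrp1 (-2.31 ± 0.40, adjusted p = 0.00248) were lower and kept their call whichever library was left out. The junction gene Cldn4 was higher (1.04 ± 0.26, adjusted p = 0.026), a call lost without KO library 1, WT library 1 or WT library 2. Cdh1, E-cadherin, had 764 and 732 CPM in KO, against 529.5 and 484 CPM in WT (0.56 ± 0.22, adjusted p = 0.155), and Epcam had 25.5 and 40.6 CPM in KO, against 75.5 and 52.0 CPM in WT (-0.94 ± 0.29, adjusted p = 0.0675). Neither was called, and the values lay on opposite sides of 0. The 7 lower became 3 without KO library 1 or WT library 1, and the 3 higher became 0 without KO library 1, WT library 1 or WT library 2.

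Several lists gave 3 calls or none. Of 25 nuclear genes of the respiratory chain, 30 of cytosolic ribosomal proteins, 8 of the mitochondrial genome and 29 of the interferon response, 0 were called. At an unadjusted p below 0.05 these lists would have 1, 0, 0 and 5 genes, and DESeq2's Wald test called 0 in each. For the interferon list, 7 genes were higher and 1 lower without an expression filter, and 4 were higher and 0 lower with the 4 day 4 libraries alone, while the other 3 lists had 0 under both settings. The medians of the 4 lists, in the order first named, were -0.11, -0.12, -0.01 and 0.29. Of 26 genes of replication and the cell cycle 3 were lower and 0 higher (Cdc6, -0.69 ± 0.13, Cdk2, -0.65 ± 0.13, and Ccnb1, -0.54 ± 0.14). Of 26 genes of the unfolded protein response 3 were lower and 0 higher (Sdf2l1, -1.06 ± 0.21, Calr, -0.71 ± 0.17, and Hsp90b1, -0.51 ± 0.14). The share called lower was 11.5% in the cell cycle list and in the unfolded protein list, against 5.05% of all genes tested. Neither list had a gene that kept its call with each library left out.

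Called genes were spread over the genome, but a stretch of chromosome 10 stood apart. Genes that averaged 5 CPM or more were placed on GRCm38 and grouped in windows of 5 Mb, of which 376 held at least 10 genes. The 3 highest medians of log2 fold change all belonged to chromosome 10, with 0.76 at 55 to 60 Mb (16 genes), 0.59 at 65 to 70 Mb (10 genes) and 0.54 at 60 to 65 Mb (37 genes). The next highest window of the genome had a median of 0.42. The lowest, at -0.29, also lay on chromosome 10, at 85 to 90 Mb, with 0 genes called higher and 8 lower of 23. Over 45 to 75 Mb, bounds drawn after the values were seen, 77 of 85 genes lay above 0, with a median of 0.57. Of these genes 23 were called higher (27.1%) and 3 lower, against 296 higher of the other 10970 genes (2.70%). The median was 0.57 for KO library 1 and 0.58 for KO library 2 relative to the WT mean, while WT library 1 minus WT library 2 gave 0.01. Both KO libraries thus showed the shift to the same extent. Lin28b and Psap, described above, lie in this stretch. The 3 lower genes were Srgn, a proteoglycan core protein (-4.98 ± 0.26), Hkdc1, a hexokinase-like enzyme (-3.85 ± 0.38), and Pcbd1, an enzyme of tetrahydrobiopterin recycling (-1.01 ± 0.21). Outside the stretch on the same chromosome, the windows at 40 to 45 Mb and 75 to 80 Mb had medians of -0.07 and -0.12. On chromosome 15, which carries Ago2, all 12 windows were below 0, with a median of -0.15 over 452 genes. Of these genes 1 was called higher (Rims2) and 39 lower. Without the limit of 5 CPM, 675 genes of this chromosome were tested. Of them 7.85% were called lower and 0.148% higher, against 5.05% and 1.99% of all genes tested. On chromosome 11, 21 of 22 windows were above 0, with a median of 0.14 over 921 genes. Chromosome 1 had 22 of 23 windows above 0 and chromosome 14 had 11 of 12. The median over all 11055 genes placed in windows was 0.039. These libraries measure RNA only.

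**Figure D5:**
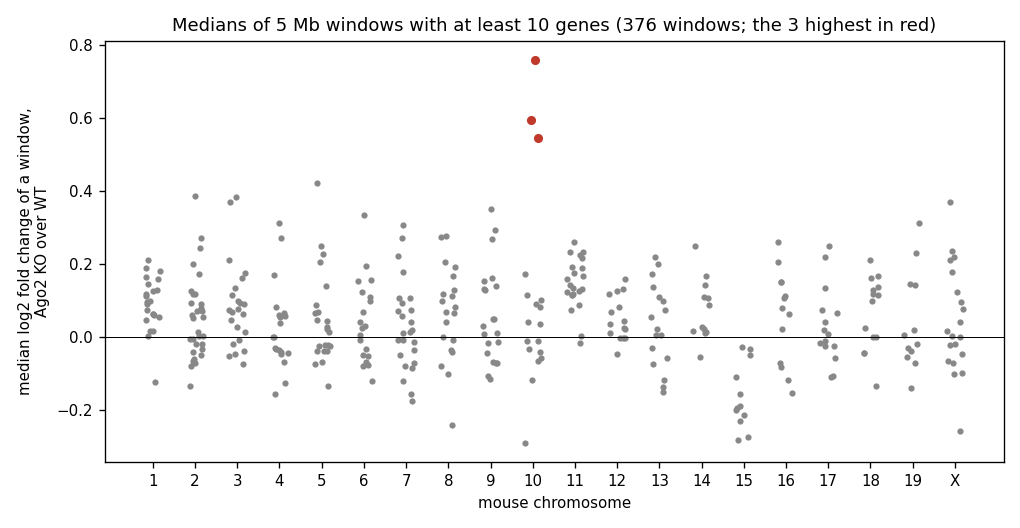
Median log2 fold change of KO over WT in windows of 5 Mb with at least 10 genes, 1 point per window, by chromosome. The 3 highest points, at 0.54 to 0.76, are all on chromosome 10, and all 12 windows of chromosome 15 lie below 0.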

How the data were processed

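Polyadenylated RNA of the 2 KO and 2 WT samples of day 4 was measured as TruSeq libraries with a reverse-stranded protocol, per the labels. The authors deposited raw read counts per gene symbol, whole numbers with different totals per library. Per the submitters' processing notes, STAR 2.5.0c, featureCounts 1.4.5-p1 and the mm10 build were used. Neither the annotation release nor the strand setting of featureCounts is given in the sources used here, so reads of overlapping, antisense or near-identical genes may be shared. The 30590 genes were filtered with filterByExpr by group, which left 17694.

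Counts were tested in R 4.3.3 with edgeR 4.0.16 (TMM scaling, robust quasi-likelihood fit, group means, no covariate). All 16 libraries of days 1 to 4, as 8 groups of 2, shared 1 estimate of the spread, and only the day 4 contrast is given. The call threshold was an adjusted p of 0.05 (Benjamini-Hochberg, over every tested gene). The standard error of a log2 fold change was derived from the quasi-likelihood F statistic. CPM values are counts relative to the scaled library size. Total counts of 12077796 to 16990811 set the precision of low genes, and floors cover counting error only.

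Named were Ago2, 10 lineage genes, the 15 largest rises and 15 largest falls among called genes that average 5 CPM or more and whose groups do not overlap, and, in each list, up to 8 members with the smallest p and those on which its description turns. Predicted and clone-named genes, apart from C77370, were counted, not named, and not every gene that the rule takes is described. The comparison, the gene lists and the naming rule were chosen with earlier results of these data known. Gene positions came from a GRCm38 annotation, which placed 17107 of the tested genes, and promoters and microRNAs from RefSeq on GRCm38.p6. Alternatives were DESeq2 size factors, the Wald test of DESeq2 1.42.0, no expression filter, a 2-fold threshold (glmTreat), the replicate number as a block, the 4 day 4 libraries alone with and without that block, and each library left out in turn. A library left alone in its group borrows the spread of the rest.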

Additional observations from a re-analysis of the deposited data

How the results depend on the processing

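The count of 1246 called genes, 352 higher and 894 lower, ranged over 443 to 835 called, 69 to 259 higher and 371 to 576 lower when 1 of the 4 libraries was left out. DESeq2's Wald test called 703 genes higher and 979 lower. Without an expression filter 2119 genes were called, 855 higher and 1264 lower, and tested against a 2-fold threshold 250 were called, 5 higher and 245 lower. Samples of the same replicate number deviated together with a correlation of 0.39. There are only 2 pairs and no label ties a number to a shared culture or day, so whether they share more than a number is not known. With the number as a replicate block the fit of 16 libraries called 1112 genes, 294 higher and 818 lower, of which 1085 were also called without it. In a fit of the 4 libraries alone 1043 were called, 351 higher and 692 lower, and with the block added there, 5396, 2681 higher and 2715 lower. In that last fit the smooth muscle list had 13 higher and 0 lower, mesenchymal matrix 10 higher and 2 lower, fibroblast regulators 10 higher and 1 lower, interferon genes 9 higher and 2 lower, ribosomal proteins 14 lower, the respiratory chain 6 lower and core pluripotency 10 lower. DESeq2 size factors gave 1269, 441 higher and 828 lower.

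Of 229 single genes followed, 184 were called and so could lose a call. Of the 229, 2 changed sign, each in 2 of the 4 fits with a library left out, and neither was called. They were Sox2, at -0.40 without KO library 2 and -0.17 without WT library 1 (range -0.40 to 0.46 with each library left out), and Ago3, at -0.20 and -0.10 in the same fits (range -0.20 to 0.54). Without KO library 1, KO library 2, WT library 1 or WT library 2, 93, 51, 70 and 69 of them lost a call. The block ended 16 of the 184 calls, size factors 8, the Wald test 1 and the 2-fold threshold 111. Leaving out the expression filter ended 3, the 4 day 4 libraries alone 35, and those 4 with the block 9. Calls were also gained, 40 with those 4 and the block and 12 with those 4 alone. The gains were 31 without the filter, 19 with the Wald test, and 3 each with the block and with size factors. The cause of these differences was not tested. Depth limits genes with few counts, for which a p above the threshold does not show equal levels.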

Other observations

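Of the genes called lower, 13 had no count in either KO library. The one with the most WT counts was Fmo1, a flavin monooxygenase, with 0 and 0 counts in the KO libraries, against 72 and 47 counts in the WT libraries. Set against a floor of 3 counts over the KO group, it was at least 46.6-fold lower. On the same floor Prame was at least 12.5-fold lower and Klf17 at least 12.1-fold lower. These 3 genes were chosen after their values were seen.

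Of 11 genes for DNA methyltransferases and TET enzymes 2 were lower and 0 higher, namely Dnmt3b and its cofactor Dnmt3l (-1.77 ± 0.39, adjusted p = 0.016), whose call was lost without KO library 1, KO library 2 or WT library 2. Of 18 regulators of G1 and inhibitors of its kinases, 2 were higher, namely Ccnd1 and Cdk6. Of 14 genes of the 2-cell-like state 2 were lower and 0 higher, Tdpoz4 (-1.51 ± 0.33, adjusted p = 0.0106) and Zfp352 (-1.47 ± 0.40, adjusted p = 0.0414), and some of that list have near-identical copies among which reads cannot be placed with certainty. By annotated class, 334 protein-coding genes of 14722 tested were higher and 835 lower, and of 351 lincRNA genes 3 were higher and 14 lower. The share called in either direction was 7.94% of protein-coding and 4.84% of lincRNA genes, against 7.04% of all genes tested. It was 1.3% of antisense genes and 0.403% of processed pseudogenes.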
